A study of Saccharomyces cerevisiae with 12 samples.

Results

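The genes described here are 10 Saccharomyces cerevisiae genes of calcium and calcineurin signalling: the calcineurin subunit genes CNA1, CMP2 and CNB1, the transcription factor gene CRZ1, the regulator genes RCN1 and RCN2, the calmodulin-dependent kinase genes CMK1 and CMK2, and the calcium pump genes PMC1 and PMR1. They were found by the gene symbols that the array's annotation gives to its probe sets. All 10 had 1 probe set each, and they stand among 5449 genes measured. No gene was left out for low signal.

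RNA was measured on 12 Affymetrix arrays, 3 in each of 4 groups. The groups were a pat1 mutant exposed to 30 µg/ml Congo Red for 2 h, the pat1 mutant grown for 2 h without it, wild type exposed to the same dose for 2 h, and wild type grown for 2 h without it. All 4 groups were exponentially growing cultures in the BY4741 background, a laboratory strain with deletions in marker genes of amino acid and uracil synthesis, and the labels do not say how the pat1 mutant was made. According to the design text each strain gave 3 biological samples, and each sample was measured with and without drug. Values are deposited log2 signals, so a difference of 1 is a factor of 2 in signal, and signals of different probe sets were not set against each other.

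Congo Red is a dye that binds cell wall polymers and disturbs wall assembly. Pat1 is a protein of the machinery that removes the cap from messenger RNAs and represses their translation. When calcium enters the yeast cytosol it binds calmodulin, which switches on the phosphatase calcineurin and the calmodulin-dependent kinases. Calcineurin removes phosphates from the transcription factor Crz1, which then moves into the nucleus and switches on genes for ion transport and wall synthesis. Calcium pumps of the vacuole and the Golgi clear the cytosol again, and wall damage is one of the stresses known to start this signal in yeast.

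The arrays were first checked against their labels. PAT1 read 2.95 to 3.94 on the 6 arrays of pat1, against 10.50 to 10.93 on the 6 wild-type arrays. The a-specific genes read 10.96 to 13.66 over all arrays (BY4741 is of mating type a). The 4 alpha-specific genes read 3.74 to 9.35, highest for SAG1, and 1 of them, STE3, was higher in untreated pat1 than in untreated wild type by 1.26 (limma adjusted p = 0.038). HIS3, partly deleted in BY4741, read 10.53 to 11.18, and LEU2 and MET17, deleted in BY4741, read 2.95 to 4.20. URA3, also deleted in BY4741, read 2.94 to 3.27 on 10 arrays but 6.76 on untreated pat1 array 1 and 7.71 on drug-treated wild-type array 2. Untreated pat1 array 1 also stood apart from the other untreated arrays in several of the 10 genes, and the results of RCN1, RCN2 and CMK2 that use it are given below with and without it. That choice of array rests partly on the values of these same genes.

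With Congo Red, CMP2 signal was higher in both strains and RCN2 and CMK2 signal was higher in wild type, while CNA1, CNB1, CRZ1 and CMK1 differed by at most 0.15 on the log2 scale in either strain. In pat1, 1 of the 10 genes rose (CMP2) and none fell, against 0.661% of all genes that rose and 0.0% that fell. In wild type, 3 of the 10 rose (CMP2, RCN2 and CMK2) and none fell, against 2.44% of all genes that rose and 0.239% that fell. Passing means here an adjusted p under 0.05 in limma's moderated test, with the Benjamini-Hochberg correction run over all genes. These counts do not pair the 2 arrays of each biological sample. With them paired, CMK2 also passed in pat1 (limma adjusted p = 0.0366), and RCN1 (0.00467) and PMC1 (0.0428) also passed in wild type. At an unadjusted p under 0.05 in limma without the pairing, 5 of the 10 genes were higher with drug in each strain and none was lower. Over all genes 5.05% were higher in pat1 and 7.47% in wild type (5.6% and 12.7% in either direction). Whether the strains responded differently was tested further on, and none of the 10 passed there. The median difference of the 10 genes was 0.25 in pat1 and 0.21 in wild type, beside medians over all genes of 0.041 in pat1 and -0.029 in wild type. The 10 genes were chosen with earlier results of these data known, so the counts and medians set beside all genes are descriptions. In whole cultures a change in the share of cells that express a gene and a change in RNA per cell cannot be told apart.

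**Figure D1:**
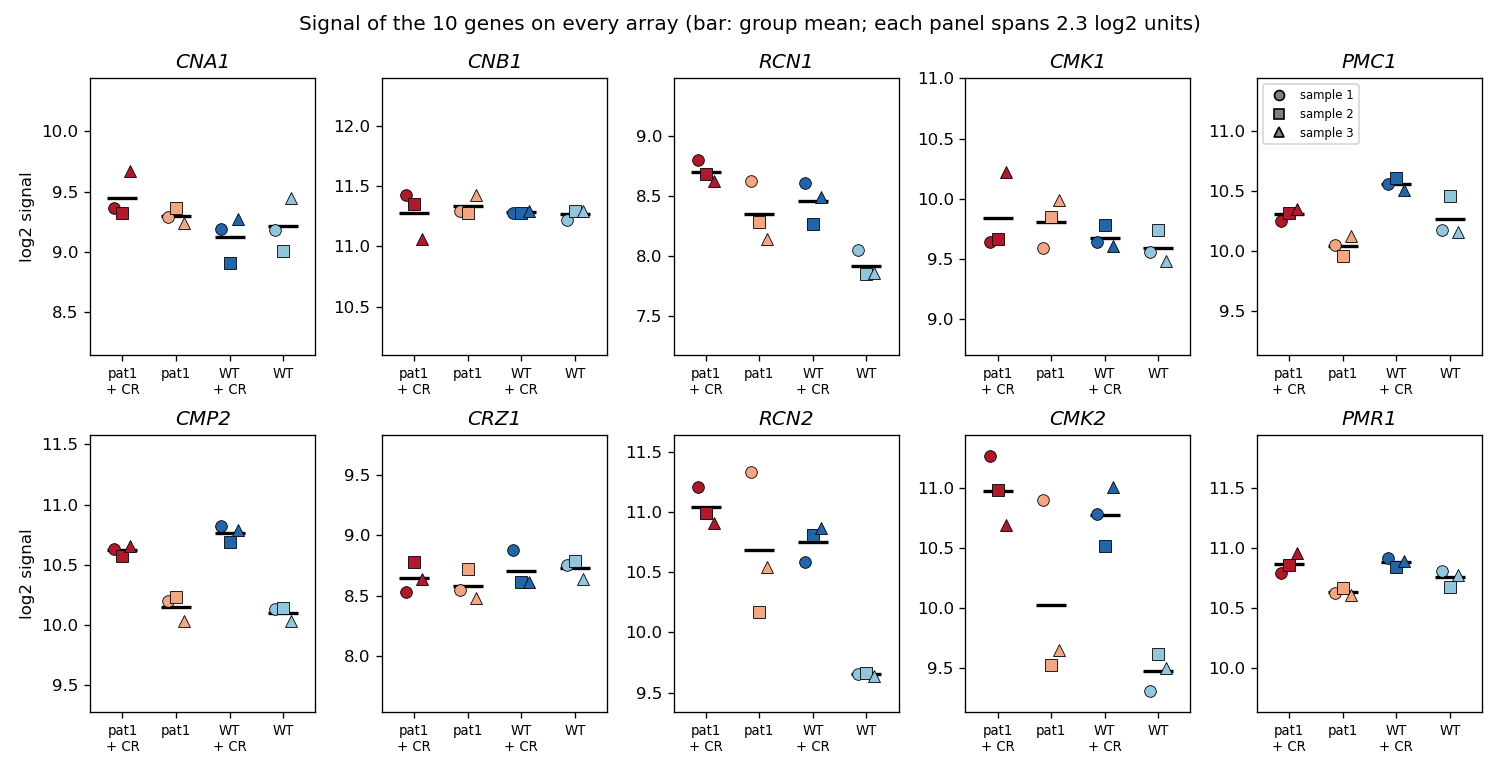
The log2 signal of each of the 10 genes on every array, by group (CR, Congo Red; WT, wild type), with the 3 biological samples as different symbols and the group mean as a bar. Every panel spans the same number of log2 units. CMP2 read at least 10.57 on all 6 treated arrays and at most 10.23 on all 6 untreated ones, and CMK2 lay at 10.90 on untreated pat1 array 1, among the treated arrays.

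Calcineurin is built from a catalytic A subunit, made from either CNA1 or CMP2, and the calcium-binding B subunit made from CNB1. CMP2 read 10.63, 10.57 and 10.66 in pat1 with Congo Red and 10.20, 10.23 and 10.03 in pat1 without it. In wild type CMP2 read 10.82, 10.69 and 10.79 with the drug and 10.13, 10.14 and 10.03 without it. All 6 treated arrays thus lay above all 6 untreated arrays. The rise was 0.47 ± 0.092 (SE; 95% interval 0.27 to 0.67; 1.38-fold; adjusted p = 0.0462) in pat1 and 0.66 ± 0.092 (SE; 0.46 to 0.86; 1.58-fold; adjusted p = 0.00217) in wild type, from 3 arrays per group in limma. It went the same way in each biological sample, by 0.43, 0.35 and 0.62 in pat1 and by 0.68, 0.55 and 0.75 in wild type. The call in wild type held under every one of the 24 alternatives tried. The call in pat1 was lost when any 1 of the 12 arrays was left out (adjusted p 0.0636 to 0.196) and when each array was centred on its median (0.099), and it held with the biological sample as a block (0.0242).

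CNA1, the other catalytic gene, read 9.36, 9.32 and 9.67 in pat1 with drug and 9.29, 9.36 and 9.24 in pat1 without it. In wild type CNA1 read 9.19, 8.91 and 9.27 with drug and 9.18, 9.01 and 9.45 without it. The groups overlapped in both strains. Its difference was 0.15 (95% interval -0.16 to 0.46) in pat1 and -0.09 (-0.41 to 0.22) in wild type, so a rise as large as that of CMP2 in wild type lay outside both intervals. CNB1 had group means of 11.28 ± 0.195 and 11.33 ± 0.083 in pat1 with and without drug, and of 11.28 ± 0.0066 and 11.27 ± 0.0416 in wild type with and without drug (SD, n = 3 each). The 4 means of CNB1 lay within 0.07, the narrowest range among the 10 genes.

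The catalytic genes were compared directly within samples. In all 6 biological samples CMP2 responded more than CNA1, by 0.19 to 0.93 on the log2 scale and by 0.53 ± 0.267 on average (SD, n = 6). A two-sided exact permutation test that turned the sign of each sample's difference gave p = 0.0312, the smallest that 6 samples allow, and 0.0469 adjusted over 3 pairs of related genes. These 3 pair tests were added after the values were known, and they compare the responses of different probe sets. With all 6 differences of the same sign the p is fixed at this smallest value, so it adds nothing to them.

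CRZ1, which encodes the transcription factor that calcineurin activates, showed overlapping groups in every comparison. It read 8.53, 8.78 and 8.64 in pat1 with drug and 8.55, 8.72 and 8.48 in pat1 without it. In wild type CRZ1 read 8.88, 8.61 and 8.61 with drug and 8.75, 8.79 and 8.64 without it. The drug difference was 0.07 (95% interval -0.19 to 0.32) in pat1 and -0.03 (-0.28 to 0.22) in wild type. These are RNA signals, and where the Crz1 protein lay in the cell was not measured.

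Rcn1 and the related Rcn2 bind calcineurin and can inhibit it, and RCN1 is itself known as a gene that calcineurin signalling induces. RCN2 read 11.21, 10.99 and 10.91 in pat1 with Congo Red and 11.33, 10.17 and 10.54 in pat1 without it. In wild type RCN2 read 10.58, 10.81 and 10.87 with the drug and 9.65, 9.66 and 9.64 without it. The wild-type groups did not overlap, whereas in pat1 the highest of all 12 values was on an untreated array. In wild type the rise was 1.10 ± 0.23 (SE; 0.60 to 1.60; 2.14-fold; adjusted p = 0.0249). In pat1 the difference was 0.36 ± 0.23 (SE; -0.15 to 0.86; limma adjusted p = 1.0). By biological sample it was -0.12, 0.82 and 0.37 in pat1 and 0.93, 1.14 and 1.23 in wild type. Without untreated pat1 array 1 the difference in pat1 became 0.68, with an adjusted p of 0.0855 in limma. In wild type the RCN2 call was lost when any 1 of the 6 wild-type arrays was left out, with adjusted p up to 0.128.

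RCN1 read 8.80, 8.68 and 8.62 in pat1 with drug and 8.62, 8.28 and 8.14 in pat1 without it. In wild type RCN1 read 8.61, 8.27 and 8.49 with drug and 8.05, 7.85 and 7.86 without it. Treated and untreated arrays did not overlap in either strain, although the lowest treated and the highest untreated pat1 array both round to 8.62. The difference was 0.36 (95% interval 0.06 to 0.66; adjusted p = 0.738) in pat1 and 0.54 (0.24 to 0.84; adjusted p = 0.0693) in wild type, which missed the threshold in both. With the biological sample as a block, limma gave adjusted p = 0.0731 in pat1 and 0.00467 in wild type, where RCN1 then passed. With the sample as a random block it passed in both strains (0.0401 in pat1 and 0.0011 in wild type). Without untreated pat1 array 1 it also passed in wild type (0.0285), and the difference in pat1 was 0.49 (adjusted p = 0.22). None of the other fits with 1 array left out called RCN1 in wild type (limma adjusted p up to 0.259). RCN2 responded more than RCN1 in 4 of 6 biological samples, by 0.28 ± 0.403 on average (SD, n = 6; exact permutation p = 0.188).

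The calmodulin-dependent kinases Cmk1 and Cmk2 are protein kinases activated by calcium-bound calmodulin, beside calcineurin. CMK2 read 11.26, 10.98 and 10.69 in pat1 with Congo Red and 10.90, 9.53 and 9.65 in pat1 without it. In wild type CMK2 read 10.78, 10.52 and 11.01 with the drug and 9.31, 9.62 and 9.50 without it. On every untreated array but untreated pat1 array 1 it read at most 9.65, and that array lay above the lowest treated arrays of both strains. The rise in wild type was 1.29 ± 0.30 (SE; 0.63 to 1.96; 2.45-fold; adjusted p = 0.0484), the largest of the 10 genes. In pat1 the difference was 0.96 ± 0.30 (SE; 0.29 to 1.62; 1.94-fold; adjusted p = 0.48), which did not pass in limma. By biological sample the CMK2 difference was 0.37, 1.45 and 1.05 in pat1 and 1.47, 0.90 and 1.51 in wild type, so all 6 samples were higher with drug.

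The call of CMK2 depended on the fit in both strains. In pat1 it passed with the biological sample as a block (adjusted p = 0.0366) and without untreated pat1 array 1 (difference 1.39, adjusted p = 0.00792). That array was singled out partly by its own CMK2 value. Of the 12 fits that left out 1 array, its fit was the only 1 that called CMK2 in pat1 (limma adjusted p up to 0.966 in the others). In wild type CMK2 passed with the block (0.0035), and the call was lost with each array centred on its median (0.0518). It was also lost when any 1 of the 6 wild-type arrays or any 1 of the 3 treated pat1 arrays was left out (up to 0.23).

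CMK1 had group means of 9.84 ± 0.324 and 9.81 ± 0.200 in pat1 with and without drug, and of 9.68 ± 0.0897 and 9.59 ± 0.131 in wild type with and without drug (SD, n = 3 each). All its groups overlapped. Its drug difference was 0.03 (95% interval -0.32 to 0.38) in pat1 and 0.08 (-0.27 to 0.43) in wild type. CMK2 responded more than CMK1 in all 6 biological samples, by 0.31 to 1.64 and by 1.07 ± 0.492 on average (SD, n = 6). The exact permutation test gave p = 0.0312, adjusted over the 3 pairs 0.0469. The values were known before this test, and 6 differences of the same sign fix its p at this smallest value. The p therefore adds nothing to the 6 differences.

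Pmc1 pumps calcium into the vacuole, and Pmr1 pumps calcium and manganese into the Golgi. PMC1 read 10.25, 10.32 and 10.35 in pat1 with drug and 10.05, 9.96 and 10.13 in pat1 without it. In wild type PMC1 read 10.56, 10.61 and 10.51 with drug and 10.18, 10.46 and 10.16 without it. Treated arrays lay above untreated ones in both strains, and by biological sample the difference was 0.20, 0.36 and 0.22 in pat1 and 0.38, 0.14 and 0.35 in wild type. It averaged 0.26 (95% interval 0.03 to 0.48; adjusted p = 0.772) in pat1 and 0.29 (0.06 to 0.51; adjusted p = 0.231) in wild type, and limma called neither. With the biological sample as a block PMC1 passed in wild type (adjusted p = 0.0428) and not in pat1 (0.145).

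PMR1 read 10.79, 10.86 and 10.96 in pat1 with drug and 10.63, 10.67 and 10.61 in pat1 without it. In wild type PMR1 read 10.92, 10.84 and 10.89 with drug and 10.81, 10.68 and 10.78 without it. Again no treated array overlapped an untreated one of its strain. The difference was 0.24 (95% interval 0.04 to 0.43) in pat1 and 0.13 (-0.06 to 0.32) in wild type, and neither passed with or without the block. Arrays of one group scattered little for PMR1, with an SD within groups of 0.0606 that was lower than in all but 1.95% of genes. CMK2 was at the other end, with an SD of 0.43 that was above that of 94.4% of genes.

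Treated arrays lay wholly above untreated ones for 4 of the 10 genes in pat1 (CMP2, RCN1, PMC1 and PMR1), against 6.85% of all genes. In wild type this held for 6 of the 10 (CMP2, RCN1, RCN2, CMK2, PMC1 and PMR1), against 10.6% of all genes. With the biological sample as a block, which follows the design text, 2 of the 10 genes rose in pat1 (CMP2 and CMK2), against 1.96% of all genes. In the same fit 5 of the 10 rose in wild type (CMP2, RCN1, RCN2, CMK2 and PMC1), against 8.22% of all genes.

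**Figure D2:**
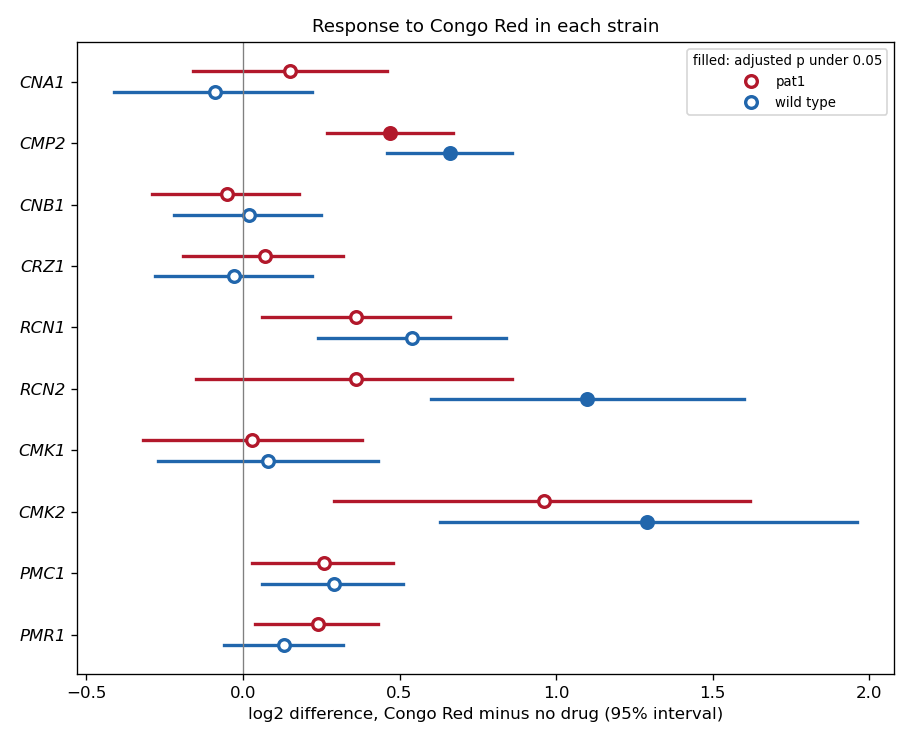
The log2 difference between Congo Red and no drug for each of the 10 genes in pat1 (red) and wild type (blue), with 95% intervals from limma on 3 arrays per group; filled points had an adjusted p under 0.05. CMP2 is filled in both strains at 0.47 and 0.66, RCN2 and CMK2 are filled in wild type alone, and the intervals of CNA1, CNB1, CRZ1 and CMK1 span 0 in both strains.

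The strains were then compared with each other, without drug first. RCN2 was higher in untreated pat1 than in untreated wild type by 1.03 ± 0.23 (SE; 0.53 to 1.53; 2.04-fold; adjusted p = 0.0268). It was the only 1 of the 10 genes that passed higher, against 3.51% of all genes, and none passed lower, against 2.94%. At an unadjusted p under 0.05 there were 2 of the 10, RCN2 and RCN1, against 24.3% of all genes in either direction, so this count was near the background. All 3 untreated pat1 values of RCN2 lay above the untreated wild-type values, which spanned 9.64 to 9.66. Without untreated pat1 array 1 the difference was 0.70 and still passed (adjusted p = 0.0346), and without both arrays that read URA3 it was 0.70 with an adjusted p of 0.0521. The call was also lost in a fit of the 2 untreated groups alone (0.117) and when any 1 untreated wild-type array or untreated pat1 array 3 was left out, with adjusted p up to 0.0861.

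RCN1 was higher in untreated pat1 by 0.43 (95% interval 0.13 to 0.73; adjusted p = 0.0846), with no overlap between the strains and no call, and by 0.29 without untreated pat1 array 1 (adjusted p = 0.226). CMK2 had a difference of 0.55 (-0.12 to 1.21; adjusted p = 0.299), which became 0.11 without untreated pat1 array 1. Both pump genes read lower on all 3 untreated pat1 arrays than on all 3 untreated wild-type arrays, without a call. The difference was -0.22 (-0.45 to 0.00; adjusted p = 0.21) for PMC1 and -0.12 (-0.31 to 0.07; adjusted p = 0.445) for PMR1. The other 5 genes had differences of -0.15 to 0.22 with overlapping groups. Wholly lower in untreated pat1 were thus 2 of the 10 genes (PMC1 and PMR1), beside 813 of 5449 genes. Wholly higher were 2 of the 10 (RCN2 and RCN1), beside 654 of 5449 genes. Both counts were near the background. The drug response in wild type and this comparison share the untreated wild-type arrays.

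With Congo Red in both strains, limma called 0 of the 10 genes higher, against 4.26% of all genes, and 0 lower, against 2.18%. At an unadjusted p under 0.05 there were 2 of the 10, CNA1 and PMC1, against 23.7% of all genes in either direction, so this count was near the background too. CNA1 was higher in pat1 by 0.33 (95% interval 0.01 to 0.64; adjusted p = 0.191), and PMC1 differed by -0.25 (-0.48 to -0.03; adjusted p = 0.163). RCN2, which differed without drug, was 0.28 higher in treated pat1 than in treated wild type (-0.22 to 0.79; adjusted p = 0.493). No alternative tried gave a call among the 10 genes in this comparison.

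**Figure D3:**
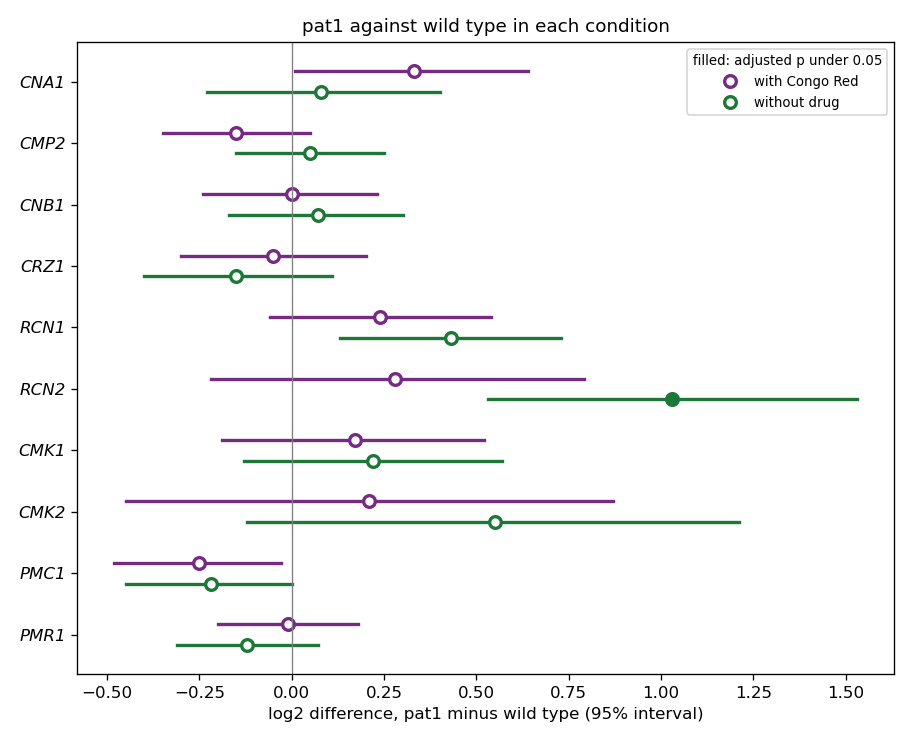
The log2 difference between pat1 and wild type for each of the 10 genes with Congo Red (purple) and without drug (green), with 95% intervals from limma on 3 arrays per group; filled points had an adjusted p under 0.05. RCN2 without drug, at 1.03, is the single filled point, and PMC1 lies below 0 in both conditions at -0.25 and -0.22.

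Whether the response to Congo Red differed between the strains was tested as the interaction of strain and drug. None of the 10 genes passed, beside 0.0% of all genes, and 1 of the 10 (RCN2) and 130 of 5449 genes (2.39%) had an unadjusted p under 0.05. RCN2 responded less in pat1, by -0.74 ± 0.32 (SE; -1.45 to -0.03; unadjusted p = 0.0413; limma adjusted p = 1.0), and by -0.42 without untreated pat1 array 1. With the biological sample as a block 0 of the 10 and 3 of all genes passed, and RCN2 had an adjusted p of 0.309. The interval for the other 9 genes spanned 0. It ran from -0.48 to 0.09 for CMP2 and from -1.28 to 0.60 for CMK2. The CMK2 difference in response was -0.34, and without untreated pat1 array 1 it changed sign to 0.10. For RCN1 it was -0.18, and -0.05 without that array.

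On untreated pat1 array 1 CMK2 (10.90), RCN2 (11.33) and RCN1 (8.62) lay among the treated arrays, while CMP2 (10.20) and PMC1 (10.05) lay with the untreated ones. SLT2, KDX1 and PIR3, genes of the cell wall integrity pathway that rise with wall stress, also lay with the untreated arrays there. KDX1 read 6.78 on it, against 9.27 to 10.41 on the treated pat1 arrays and 6.54 and 6.71 on the other untreated pat1 arrays. URA3 read 6.76 on it. What the RNA behind the URA3 signal contributed to the values of the 10 genes was not tested. Without both arrays that read URA3, CMK2 passed in both strains, at 1.39 in pat1 (adjusted p = 0.00735) and 1.42 in wild type (0.00237).

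**Figure D4:**
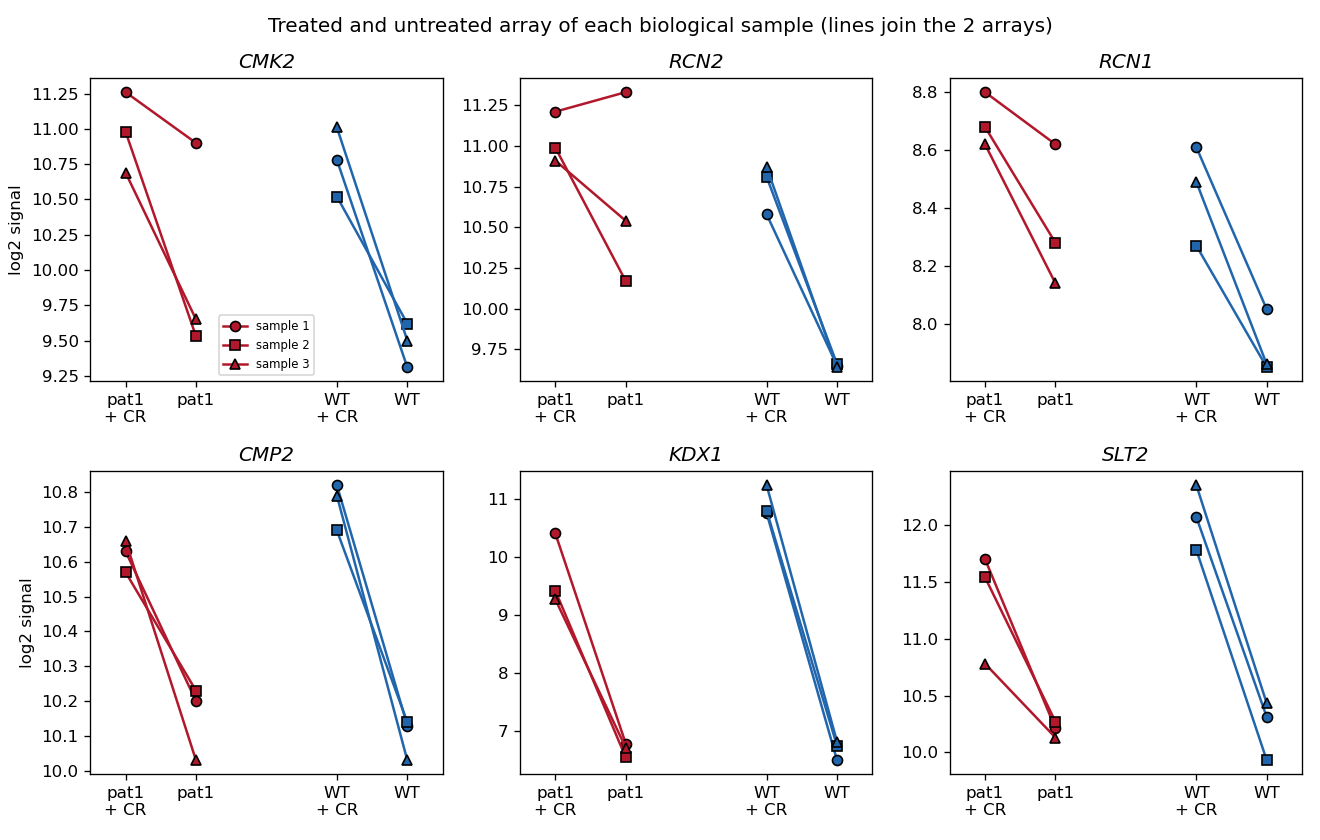
The treated and untreated array of each biological sample joined by a line, for 4 of the 10 genes and for KDX1 and SLT2, genes of the cell wall integrity pathway; axes in log2 signal differ between panels. Sample 1 of pat1 (circles) starts high without drug for CMK2, RCN2 and RCN1, at 10.90, 11.33 and 8.62, and not for CMP2, KDX1 or SLT2.

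The order of the 4 group means differed among the genes. RCN1, RCN2 and CMK2 had the same order, highest in pat1 with drug, then wild type with drug, then untreated pat1, and lowest in untreated wild type. For RCN1 and RCN2 the first 2 and the last 2 groups of that order did not overlap while the middle 2 did, and for CMK2 all neighbours overlapped. CMP2 was highest in wild type with drug, followed by pat1 with drug, which did not overlap it, and then by both untreated groups, which overlapped each other. PMC1 and PMR1 had the order wild type with drug, pat1 with drug, untreated wild type and untreated pat1. The first 2 of these groups overlapped for PMR1 and not for PMC1, the middle 2 overlapped for both, and the untreated groups overlapped for neither. For CNA1, CNB1, CRZ1 and CMK1 all neighbours in the order overlapped. The span from the lowest to the highest group mean was 1.50 for CMK2, 1.38 for RCN2, 0.78 for RCN1, 0.66 for CMP2, 0.51 for PMC1 and at most 0.33 for the other 5.

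Over the 12 arrays RCN1, RCN2 and CMK2 varied together. Pearson's r was 0.901 between RCN1 and CMK2, 0.897 between RCN1 and RCN2, and 0.896 between RCN2 and CMK2, and it was 0.802 between CMP2 and CMK2. Among all genes, the 3 most like CMK2 were DIA1 (0.983), RCR1 (0.965) and RCH1 (0.924). Those most like CMP2 were HAL1 (0.975), MCH5 (0.967) and KDX1 (0.963), and those most like RCN2 were HUA1 (0.956), MPM1 (0.941) and PAU3 (0.937). With the group means taken off, the 3 genes most like CMK2 were DIA1 (0.964), DON1 (0.953) and YDL177C (0.948). Untreated pat1 array 1 weighs heavily in that measure. The SD of CMK2 was 0.757 in untreated pat1 and 0.157 to 0.285 in the other groups. RCN1, RCN2 and CMK2 all read high on that array, and no r was computed without it. The r values are descriptions over 12 arrays that share strains, drug and biological samples.

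Around the 10 genes, 34 others of the pathway were listed by role, of which 31 were measured. ENA1, ENA2 and NCW2 were not analysed here. In pat1, 3 of the 31 rose with Congo Red and none fell, and in wild type 6 rose and none fell. Their median difference was 0.17 in pat1 and 0.15 in wild type. Among the genes listed here as Crz1 targets 3 of 11 rose in pat1 (median 0.44) and 5 of 11 in wild type (median 0.49), beside 0.661% of all genes in pat1 and 2.44% in wild type. That list was chosen with earlier results of these data known. It leaves out the 10 genes, and which of them are Crz1 targets too was not listed here. RCN1, named above as induced by calcineurin signalling, missed the threshold in both strains without the block. So did PMC1 (limma adjusted p = 0.772 in pat1 and 0.231 in wild type) and PMR1 (0.722 and 0.653). CMK2 and RCN2 passed in wild type and not in pat1, and CMP2 passed in both. The counts of listed targets therefore do not stand for all genes that calcineurin signalling may induce. With the block 7 of the 11 listed targets rose in pat1, beside 1.96% of all genes, and 9 in wild type, beside 8.22%. In each strain 9 had an unadjusted p under 0.05 in limma, beside 5.6% of all genes in pat1 and 12.7% in wild type. Among the other 20, none rose in pat1 (median 0.11; 1 at an unadjusted p under 0.05 and 1 called with the block) and 1 rose in wild type (median 0.012; 3 at an unadjusted p under 0.05 and 2 called with the block). The unadjusted counts of these 20 were near the shares of all genes just given. Calmodulin itself, CMD1, differed by 0.17 (95% interval -0.08 to 0.42) in pat1 and by 0.25 in wild type (adjusted p = 0.4) without passing.

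GSC2, which encodes the stress-induced catalytic subunit of glucan synthase, read 11.94, 11.93 and 12.10 in pat1 with drug and 10.73, 10.85 and 11.54 in pat1 without it. In wild type GSC2 read 11.58, 11.65 and 12.07 with drug and 9.57, 9.62 and 9.30 without it. The groups did not overlap in either strain, and untreated pat1 lay between untreated and treated wild type. The rise in wild type was 2.27 ± 0.20 (SE; adjusted p = 7.7e-05), and the difference in pat1 was 0.95 ± 0.20 (SE; adjusted p = 0.0706), which passed with the biological sample as a block (0.024). GSC2 was higher in untreated pat1 than in untreated wild type by 1.54 ± 0.20 (SE; adjusted p = 0.0027). Its response differed between strains by -1.32 (95% interval -1.94 to -0.69; limma adjusted p = 0.752 over all genes).

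PHO89, which encodes a sodium and phosphate cotransporter of the plasma membrane, read 12.15, 12.10 and 12.06 in pat1 with drug and 10.93, 10.35 and 10.47 in pat1 without it. In wild type PHO89 read 13.01, 12.83 and 13.00 with drug and 12.53, 12.41 and 12.59 without it. Every pat1 array lay below every wild-type array. PHO89 rose with drug by 1.52 ± 0.14 (SE; adjusted p = 0.000375) in pat1, and the difference in wild type was 0.44 ± 0.14 (SE; adjusted p = 0.165), which passed with the block (0.0234). It was lower in pat1 by -1.93 without drug (adjusted p = 4.49e-05) and by -0.84 with drug (adjusted p = 0.00731). The difference in its response between strains was 1.08 (0.65 to 1.52), which did not pass over all genes in limma (adjusted p = 0.429).

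YPS1, the gene of a cell-surface aspartyl protease, rose by 0.76 (adjusted p = 0.0182) in pat1 and by 1.34 (adjusted p = 0.000126) in wild type. PUN1, the gene of a plasma membrane protein, rose by 0.98 (0.0296) in pat1 and by 1.48 (0.000795) in wild type. CRH1, which encodes a cell wall transglycosylase, rose in wild type by 1.19 (0.00258) and differed by 0.81 in pat1 (0.0682, and 0.0165 with the block). GYP7, whose product acts on a GTPase of vacuole traffic, rose in wild type by 0.79 (0.0101) and differed by 0.34 (0.857) in pat1. GSC2, CRH1, YPS1 and PUN1 are also known to respond to the cell wall integrity kinase Slt2. SLT2 itself read 10.78 to 11.70 in treated pat1 and 10.13 to 10.27 in untreated pat1, against 11.78 to 12.35 in treated and 9.93 to 10.43 in untreated wild type, and its part in these results was not tested.

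Outside the Crz1 targets, ECM7, which encodes a membrane protein of the calcium influx system, rose in wild type by 0.63 (adjusted p = 0.0113) and differed by 0.53 in pat1 (0.0772, and 0.0427 with the block). The block also called the Crz1 targets KRE6 and ENA5 in both strains. In wild type it also called SCW10 and FRT2, a gene listed here with the calcineurin substrates and not shown here to encode one. The ENA5 probe set may also read related ENA genes. The calcium channel genes CCH1, MID1 and YVC1 did not pass in either strain. MSN5, the gene of the exportin that carries Crz1 out of the nucleus, was lower in untreated pat1 than in untreated wild type by -0.46 (adjusted p = 0.0368), at 10.29, 10.58 and 10.45 against 10.92, 10.86 and 10.90. With drug it differed by -0.33 (adjusted p = 0.0948). In all, 1 of the 31 genes was higher (GSC2) and 2 were lower (PHO89 and MSN5) in untreated pat1, beside 3.51% of all genes higher and 2.94% lower. With drug 1 was lower in pat1 (PHO89) and none was higher, beside 2.18% and 4.26% of all genes. None of the 31 passed for a difference in response, beside 0.0% of all genes. At an unadjusted p under 0.05 in limma there were 5 of the 31, beside 2.39% of all genes.

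**Figure D5:**
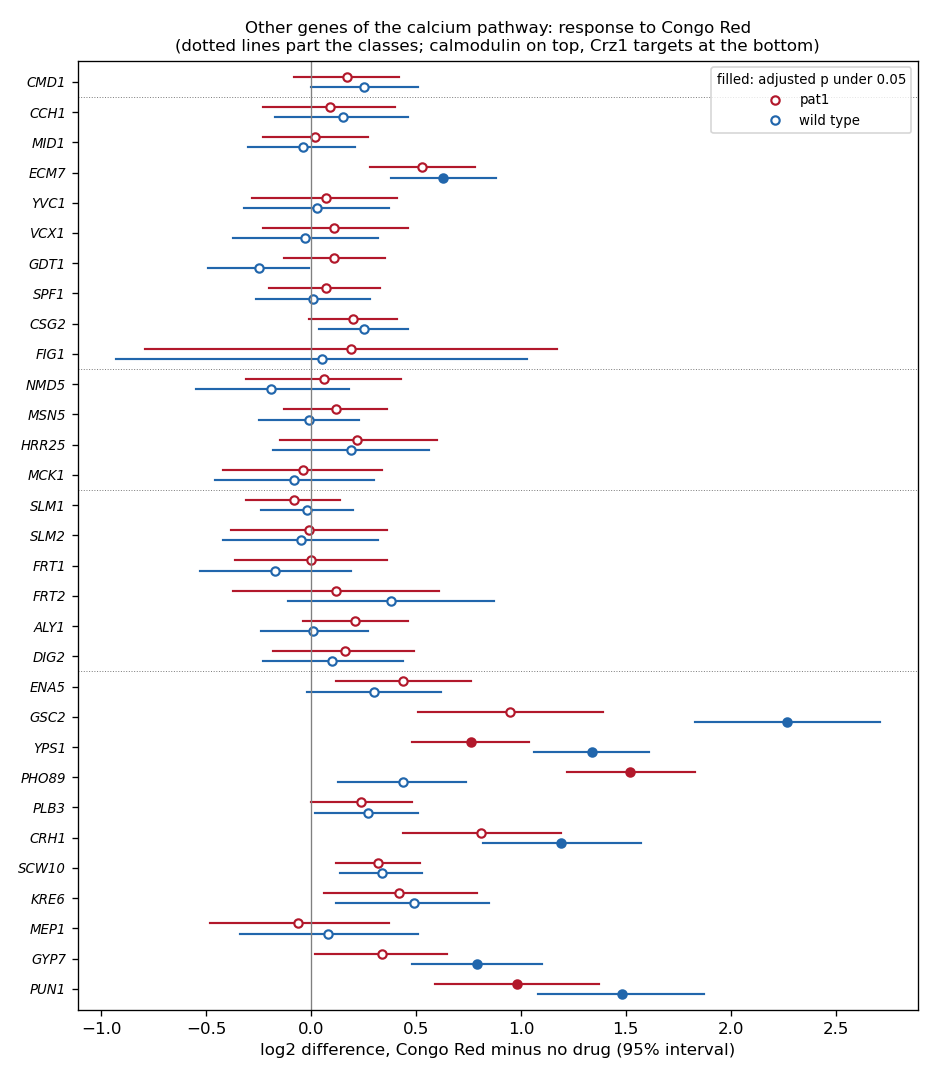
The log2 difference between Congo Red and no drug in pat1 (red) and wild type (blue) for the 31 other measured genes of the pathway, with 95% intervals from limma on 3 arrays per group; filled points had an adjusted p under 0.05, and dotted lines part calmodulin, channels and transporters, Crz1 transport and kinases, calcineurin substrates and Crz1 targets. The filled points lie among the Crz1 targets at the bottom, with the exception of ECM7 at 0.63 in wild type.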

How the data were processed

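Total RNA from yeast cultures was hybridised to 12 Affymetrix arrays. The deposited table holds log2 signals per probe set that the authors made with RMA, per the submitters' processing notes (version not given there). They were used without further scaling. Arrays have no read depth, so their number limits the precision. No genome build is given in the sources used here, and no coordinates are printed.

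Of 5739 probe sets, 23 were array controls and 218 had no listed gene. Each of the other 5498 had 1 symbol in the platform annotation, with 12 updated through Entrez numbers and the RefSeq table of assembly R64. For the 47 genes with several probe sets the brightest was used, which gave 5449 genes.

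A model with 4 group means (8 residual degrees of freedom) was fitted with limma 3.58.1 (lmFit and eBayes) in R 4.3.3, and tested on simulated data. The simulated arrays were drawn independently, so that test does not cover the correlation between arrays of a sample given below. Adjusted p-values are Benjamini-Hochberg over all genes, standard errors and intervals are moderated, and calls use 0.05. Python 3.11.15, pandas 2.3.3, scipy 1.17.1 and matplotlib 3.10.9 served for the rest. The design text pairs the arrays of each biological sample. Deviations from group means of same-numbered arrays correlated at 0.616 to 0.732 in pat1 and 0.648 to 0.801 in wild type, all above the bound of 0.1. A fit with the sample as a block (4 residual degrees of freedom) was therefore run beside the main one. Where nothing else states separate cultures, p-values measure the spread between these samples.

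The 10 genes, the pathway list and the alternatives were chosen with earlier results of these data known. Named genes were the 10, pathway genes past a test or with the largest differences, and label checks. For likeness, the 3 genes with the highest r were named. Alternatives were another normalization (median centring, quantile, cyclic loess), no dim genes (the dimmest 25%), another moderation, only the groups compared, the mean of all probe sets, a stricter threshold of 0.01, the sample as a fixed or random block, each array left out, the arrays with URA3 signal left out, and wild-type sample 2 and pat1 sample 3 left out.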

Additional observations from a re-analysis of the deposited data

How the results depend on the processing

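Calls among the 10 genes were few, and all but that of CMP2 in wild type (limma adjusted p = 0.00217) were close to the threshold. With the replicate block, that is the pairing of each sample's 2 arrays, 2 of the 10 genes passed for Congo Red in pat1 and 5 in wild type, where the fit without it called 1 and 3. Of the other pathway genes the block called 8 in pat1 and 11 in wild type, where the fit without it called 3 and 6. It changed no count for the difference between strains in the response. As a random block the sample gave 3 and 5 of the 10 genes, 9 and 15 of the pathway genes, and 2 pathway genes for the difference in response, where the main count was 0. At an adjusted p under 0.01 there was no call among the 10 genes in pat1 and 1 in wild type, 1 pathway gene in pat1, and 0 of the 10 for pat1 against wild type without drug.

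The pat1 call, CMP2, went to 0 with median centring, quantile or cyclic loess normalization, with trend and robust moderation, and in a fit of only the 2 groups. The pathway count in pat1 was 5 with trend and robust moderation and 1 with only the 2 groups. The call of RCN2 without drug went to 0 with only the 2 groups and without both arrays with URA3 signal. For pathway genes between the treated strains the main count of 1 was 4 under each of the 3 normalizations, and 2 without the dimmest genes, with only the 2 groups, and without both arrays with URA3 signal. With pat1 sample 3 and wild-type sample 2 left out, the 10 genes gave 0 calls in pat1, 1 in wild type and 0 without drug, and the pathway genes gave 1 in pat1 and 0 between the treated strains.

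Leaving out 1 array at a time gave 0 to 1 of the 10 genes in pat1, 1 to 4 in wild type and 0 to 1 without drug. For pathway genes it gave 1 to 3 in pat1, 4 to 7 in wild type, 2 to 3 without drug, 1 to 4 with drug and 0 to 1 for the difference in response. In wild type the call that stayed without any 1 of the 6 wild-type arrays was CMP2, with adjusted p of at most 0.0156 in limma over all arrays left out.

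Over 50 pairs of gene and comparison, 1165 values under the alternatives kept side and sign in 1063. Most of these pairs had no call in the main fit, so keeping mostly meant staying uncalled. All 10 genes have 1 probe set, so the mean of all probe sets could not change their values. In 50 of the 1165 a call was lost, in 11 a call was gained, 41 changed sign without a call on either side, and 0 called values reversed. Calls were lost in 20 of 24 alternatives for CMP2 in pat1 and in 14 of 24 for CMK2 in wild type. For RCN2 they were lost in 8 of 24 in wild type and in 8 of 23 without drug. For CMP2 in wild type they were lost in 0 of 24. RCN1 lies among the dimmest 25% of genes and has no value without them. The causes of these changes were not tested. With 3 arrays a group, small differences between genes near the threshold are not resolved.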
